A study of Homo sapiens with 9 samples.

Results

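The mRNAs described here encode enzymes, transporters and regulators that carry glucose to lactate, into the pentose phosphate pathway and, through pyruvate, towards the mitochondrial citrate cycle. They were measured in vesicles released by H9 cells, a long-established human embryonic stem cell (hESC) line. The list holds 34 genes. A probe set, a group of short oligonucleotides on the array that together read an mRNA, was taken for a member when the array annotation gave it the symbol of a listed gene, alone or among several. In all, 80 of the 54,675 probe sets met this rule and covered 32 of the genes. Of these, 3 are control probe sets of GAPDH and stayed out of the fits, which left 77. Both remaining listed genes, which encode monocarboxylate transporters, were not analysed here.

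H9 vesicles came in 3 groups of 3 Affymetrix HG-U133 Plus 2.0 arrays, with 3 biological samples per group per the study's methods. The study's results name 3 hESC cultures as the source of the MVs and EXOs on the arrays. Its protocol pellets EXOs from the medium left after the MVs spin, so that arrays of both groups may share a culture. The labels do not say which arrays do, and the tests treat the groups as independent. By the labels, debris was first cleared at 300g (200g in the description field of MVs) and, for MVs and EXOs, at 2,800g as well. Microvesicles (MVs) are the pellet of a 1 hour spin at 16,500g, and exosomes (EXOs) that of a 2 hour spin at 120,000g. The non-fractionated vesicles (hESEVs), which hold both kinds, also have 120,000g and 2 hours in the labels, whereas the study's methods give them a faster and longer spin. For hESEVs the methods also name a clearing spin faster than 2,800g, meant to remove apoptotic bodies as well as debris. All groups share the cell line, grown without feeder cells or serum, and no group was treated. Centrifugation separates vesicles by how fast they sediment, not by their origin.

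Glycolysis splits glucose into pyruvate in the cytosol and yields ATP without oxygen. Lactate dehydrogenase then turns pyruvate into lactate, or the pyruvate dehydrogenase complex turns it into acetyl-CoA in mitochondria. The pentose phosphate pathway branches off at glucose phosphate and supplies NADPH and ribose for nucleotides. Pluripotent stem cells of the primed kind, such as hESCs, are known for a high rate of glycolysis even in the presence of oxygen, and several of these genes respond to hypoxia-inducible factor (HIF) and to MYC.

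Since such regulation acts at promoters, sequences upstream of a transcription start are shown for 3 members. Of these, 2 are genes whose mRNA was higher in MVs than in EXOs (LDHA and GAPDH), and 1 did not pass the test (ALDOC). Each is the stretch of 250 bases that ends just before a transcription start, read 5′ to 3′ on the strand of the gene, from RefSeq, assembly GRCh38.p14. Capitals mark ACGTG, the core letters of HIF binding elements, and CACGTG, the E-box that MYC and USF proteins can bind, both searched on both strands. CACGTG reads the same on either strand and holds ACGTG on each, so that every E-box also counts as 2 matches to ACGTG.
LDHA, chr11:18394313-18394562, plus strand: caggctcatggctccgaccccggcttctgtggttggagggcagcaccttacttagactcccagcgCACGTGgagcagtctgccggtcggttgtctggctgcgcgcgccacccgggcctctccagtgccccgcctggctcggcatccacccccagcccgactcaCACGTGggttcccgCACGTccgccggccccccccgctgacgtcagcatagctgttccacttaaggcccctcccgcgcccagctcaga
GAPDH, chr12:6535014-6535263, plus strand: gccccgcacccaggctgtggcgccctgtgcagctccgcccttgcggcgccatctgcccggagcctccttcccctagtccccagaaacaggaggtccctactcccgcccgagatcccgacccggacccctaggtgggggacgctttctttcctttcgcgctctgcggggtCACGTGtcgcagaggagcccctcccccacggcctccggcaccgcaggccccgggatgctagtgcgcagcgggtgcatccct
ALDOC, chr17:28576896-28577145, minus strand: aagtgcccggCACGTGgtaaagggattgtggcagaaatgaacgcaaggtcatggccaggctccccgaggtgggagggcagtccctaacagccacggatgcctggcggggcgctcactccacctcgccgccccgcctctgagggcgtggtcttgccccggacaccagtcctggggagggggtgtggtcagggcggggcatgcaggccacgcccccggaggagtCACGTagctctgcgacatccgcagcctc
RefSeq gives LDHA a second start, whose window (not shown) held neither motif. Whether a start used here is the main start of its gene was not checked. A window can therefore lie within a longer transcript of the same gene. The LDHA window shown held 5 matches to ACGTG, of which 2 E-boxes account for all but 1. The GAPDH window held 1 E-box and no further match, and the ALDOC window 1 E-box and 1 more ACGTG. Of 53 windows found for 30 member genes, 37.7% held ACGTG and 13.2% CACGTG, beside 18.5% and 6.34% of all 35,116 windows of this length in the table. Each window shown holds CACGTG, whereas only 7 of the 30 member genes had it in any window, so that those shown are not typical. ACGTG stood in at least 1 window of 8 of 17 members higher in MVs and of 9 of 13 members not called. CACGTG stood in at least 1 window of 4 of the 17 and of 3 of the 13. These are counts of genes, in which a gene with more windows has more chances. They cannot be set beside the shares of windows, and the share of all genes was not counted. These letters are a description of the windows and no sign that a factor was bound, and the arrays measured RNA in vesicles, not transcription in the cells.

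Signals are MAS5 intensities on a linear scale, with every array scaled to the same trimmed mean. Per the study's methods, equal masses of total RNA were amplified and equal masses of the amplified RNA labelled. A higher signal therefore means a larger share of the hybridized RNA, and more vesicles with a transcript cannot be told apart from more copies per vesicle. By electrophoresis, the study found much longer RNA in MVs than in EXOs. The part of RNA length in the differences below was not tested. Median signals were 358 to 365 on MVs arrays, 422 to 429.7 on EXOs arrays and 415 to 421 on hESEVs arrays. The files hold no detection calls. A background level was therefore taken for each group from 64 genes restricted to tissues such as liver, muscle or retina, as the 90th percentile of their mean signals, and it was 696 in MVs, 1,249 in EXOs and 1,063 in hESEVs. Where a mean lies under this level, the size of a fold is uncertain. Of 13 measured hESC markers, all 13 were higher in MVs than in EXOs, beside 10.9% of all genes. Of their 28 probe sets, 21 were higher in MVs and 1 in EXOs, beside 7.23% and 1.97% of all tested. In MVs, EXOs and hESEVs, 13, 7 and 11 of the markers lay above background, while 0 of 12 germ layer markers did so in any group. Of those 12, 2 were higher in EXOs than in MVs, beside 2.14% of all genes. Each gene is represented by the probe set of its own with the highest mean log2 signal, and gene IDs are those of NCBI Gene. A gene or probe set was called at an adjusted p under 0.05 (limma, two-sided, Benjamini-Hochberg over all 54,613 non-control probe sets) and at least a 2-fold difference. Folds are ratios of geometric means over 3 arrays per group.

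Most measured genes of the list were called higher in MVs than in EXOs, though only 2 of the 4 pentose phosphate genes were. No gene passed the test in the other direction. By representative probe set, 18 of the 32 genes (56.2%) were higher in MVs, beside 10.9% of all 19,775 genes with a probe set of their own. No member gene was higher in EXOs by limma, beside 2.14% of all genes. At an unadjusted p under 0.05 and 2-fold, 1 member was higher in EXOs, and the methods' t-test called 0. The median log2 difference, MVs minus EXOs, was 2.08 over the members and -0.23 over all genes. Among the probe sets, 34 of 77 (44.2%) were higher in MVs, beside 7.23% of all tested, and 0 were higher in EXOs, beside 1.97%. Here 4 had an unadjusted p under 0.05 and a 2-fold difference towards EXOs, and the methods' t-test called 3 without and 0 with adjustment. With only probe sets above the median mean log2 signal kept, 31 of 56 members were higher in MVs, beside 3,591 of 27,306 kept. In EXOs 0 of those members were higher, beside 1,424.

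Both numbers of calls over all probe sets depend on the scaling. MVs arrays had the lower medians but 908 to 945 probe sets above a signal of 5,000, against 293 to 319 on EXOs arrays and 441 to 463 on hESEVs arrays. With arrays centred on their median 4,765 probe sets were higher in MVs and 336 in EXOs, in place of 3,949 and 1,078, with the median of all probe sets moved by 0.23. The members gave 36 and 0 under that centring. Quantile normalization, which forces 1 distribution of signals on all arrays, moved that median by 0.14 and gave 3,719 and 1,369, with 33 and 1 among the members. Under it the log2 differences of the 18 genes ran from 0.40 to 4.88 in place of 1.78 to 5.42, and 16 of the 18 were called.

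**Figure D1:**
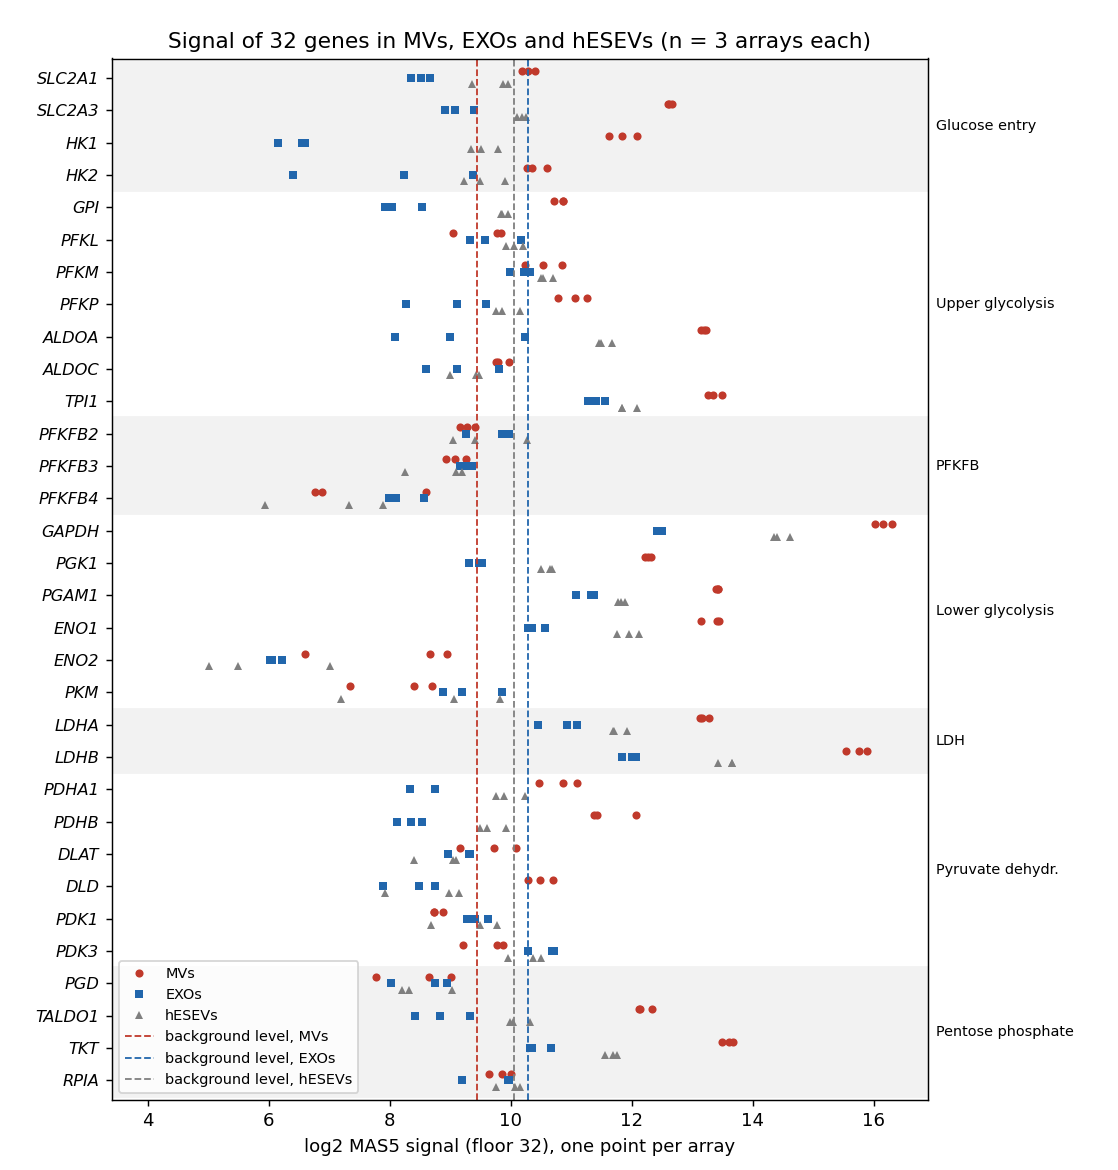
Log2 MAS5 signal (x axis) of the representative probe set of 32 genes (y axis, grouped by role) on each array, with circles for MVs, squares for EXOs and triangles for hESEVs (3 arrays each) and dashed lines at the background level of each group. For 18 genes the MVs points lie to the right of the EXOs points and passed the test, with the hESEVs mean between theirs, and the PFKFB genes lie left of the background lines in group means. Positions of different genes on the x axis are not comparable as amounts.

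Glucose enters cells through facilitative transporters, and hexokinases trap it as glucose phosphate. In MVs, 3 of these 4 genes were higher than in EXOs. HK1 (gene ID 3098), the hexokinase of most tissues, gave signals of 3,651, 4,345 and 3,165 on the MVs arrays, 71.1, 93.2 and 97.0 on the EXOs arrays and 879, 728 and 650.0 on the hESEVs arrays. No MVs array came near an EXOs array, and hESEVs lay between. The log2 difference was 5.42 (standard error 0.25, 42.7-fold, adjusted p = 5.0e-06), with EXOs and hESEVs means both under background.

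HK2 (gene ID 3099), the insulin- and hypoxia-responsive hexokinase, gave 1,312, 1,239 and 1,557 in MVs, 84.5, 667 and 299.7 in EXOs and 959.7, 599.8 and 718 in hESEVs. The EXOs arrays spread more widely than those of MVs or hESEVs, yet did not overlap with the MVs arrays. Its log2 difference of 2.41 missed the threshold (adjusted p = 0.055). Among other settings, it passed with median centring (adjusted p = 0.027), with all 9 arrays in the fit (0.020) and without either of EXOs replicates 1 and 2 (0.042 and 0.018), and over all settings the adjusted p ran from 0.014 to 0.21. Its other 2 probe sets had log2 differences of 0.02 and 0.40, neither called.

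SLC2A3 (gene ID 6515), the high-affinity transporter GLUT3, gave 6,179, 6,508 and 6,317 in MVs, 482, 669 and 540.2 in EXOs and 1,102, 1,165 and 1,218 in hESEVs with its representative probe set. The 3 groups were fully apart. The log2 difference between MVs and EXOs was 3.50 (standard error 0.14, 11.3-fold, adjusted p = 2.3e-06). Other probe sets that carry this symbol did not show it. A pair of its own gave log2 differences of -0.30 and 0.59, and a pair shared with the near-identical copy SLC2A14 gave -0.45 and 0.49, none called. SLC2A1 (gene ID 6513), the broadly expressed GLUT1, gave 1,249, 1,351 and 1,166 in MVs and 406, 326 and 367 in EXOs. That is a 3.44-fold difference (log2 1.78, adjusted p = 7.9e-04) without overlap. Its second probe set was at 0.19 and overlapped, under background in every group, and it alone of the pair matches 1 transcript. With both averaged the log2 difference was 0.99 with no call (adjusted p = 0.19).

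The upper part of glycolysis, from glucose phosphate to triose phosphates, held both the genes that differed widely and genes that did not pass. GPI, PFKP, ALDOA and TPI1 were higher in MVs, and PFKL, PFKM and ALDOC were not called. ALDOA (gene ID 226), the aldolase of muscle and most embryonic tissue, gave 9,638, 9,426 and 9,116 in MVs, 1,210.0, 511 and 271 in EXOs and 2,879.9, 3,283 and 2,829 in hESEVs. The MVs arrays agreed closely with each other, whereas the EXOs arrays spread widely below them. The log2 difference was 4.09 (standard error 0.46, 17.0-fold, adjusted p = 9.0e-04), and its other 2 probe sets gave 4.66 and 4.81, both called. All 3 carry the mark of probes that match more than 1 transcript.

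ALDOC (gene ID 230), the aldolase of brain, behaved otherwise on its only probe set. It gave 1,005, 859 and 886 in MVs and 554, 385 and 899.5 in EXOs, where 1 EXOs array reached the MVs arrays. Its log2 difference of 0.67 did not pass (adjusted p = 0.21).

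GPI (gene ID 2821), the isomerase that makes fructose phosphate, gave 1,688, 1,853 and 1,872 in MVs, 243, 263 and 372 in EXOs and 991, 928 and 915 in hESEVs. These groups were apart, with a log2 difference between MVs and EXOs of 2.65 (6.27-fold, adjusted p = 1.5e-04). TPI1 (gene ID 7167), which interconverts the triose phosphates, was at 10,348, 11,522 and 9,860.1 in MVs and 3,012, 2,476 and 2,711 in EXOs. Its signal lay above background in every group, and the difference was 3.87-fold (log2 1.95, adjusted p = 1.5e-05). Its other probe sets gave log2 differences of 2.70 and 2.93, both called, but quantile normalization brought the representative to 0.40 and ended the call.

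Phosphofructokinase commits sugar to glycolysis and is built from subunits of 3 genes. PFKP (gene ID 5214), the platelet subunit, gave 2,447, 2,143 and 1,750.2 in MVs and 551, 307 and 767 in EXOs. The groups did not overlap, and the log2 difference was 2.05 (standard error 0.33, 4.14-fold, adjusted p = 0.0057), with EXOs under background. With its probe sets averaged (log2 0.40) and by the methods' t-test with adjustment (adjusted p = 0.078) PFKP was not called. PFKM (gene ID 5213), the muscle subunit, gave 1,201, 1,474 and 1,844 in MVs and 1,271, 1,013 and 1,194 in EXOs, and PFKL (gene ID 5211), the liver subunit, gave 917, 526 and 872 in MVs and 762, 1,147 and 642 in EXOs. Both overlapped between groups, with log2 differences of 0.36 and -0.14 (adjusted p = 0.25 and 0.80). PFKL turned its sign to 0.10 under median centring. A second probe set of PFKP at -1.24 (not called) ran against the first.

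The PFKFB enzymes make and remove a fructose bisphosphate other than the one phosphofructokinase produces, and it is a signal that switches phosphofructokinase on. Not 1 of their 7 probe sets was called by limma in either direction between MVs and EXOs, and all 3 representative means lay under background in every group. At an unadjusted p under 0.05 and 2-fold, 2 of the 7 were higher in EXOs, and the methods' t-test called 2 without and 0 with adjustment. PFKFB3 (gene ID 5209), the isoform with the most kinase activity, gave 487, 542 and 613 in MVs and 653, 606 and 574 in EXOs, with a log2 difference of -0.16 that turned to 0.04 and 0.07 under quantile normalization and median centring. PFKFB2 (gene ID 5208) and PFKFB4 (gene ID 5210) had log2 differences of -0.41 and -0.81, and their arrays overlapped. The lowest value of the 7 was -1.93, at a probe set of PFKFB4 (adjusted p = 0.076).

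**Figure D2:**
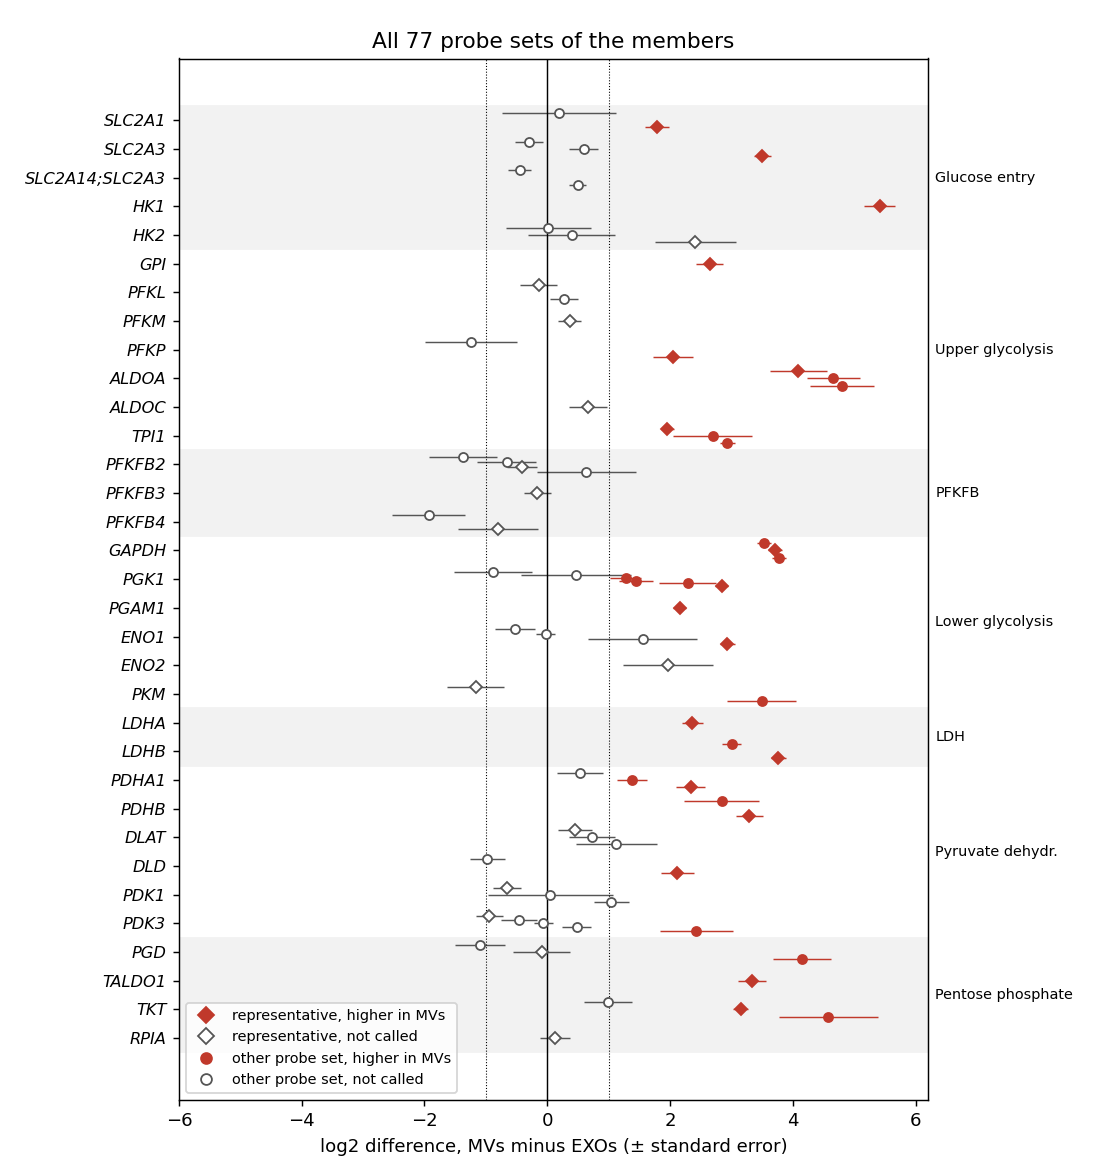
Log2 difference, MVs minus EXOs (x axis, bars: standard error from limma), of all 77 member probe sets by gene (y axis), with diamonds for the representative probe set, circles for others, filled red where called and open where not; dotted lines mark a 2-fold difference. The filled points, 34 in all, lie to the right, none lies to the left, and several genes hold both filled and open points.

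The lower part of glycolysis yields ATP. GAPDH, PGK1, PGAM1 and ENO1 were higher in MVs by their representative probe sets, ENO2 was not called, and PKM differed between its probe sets. GAPDH (gene ID 2597), which oxidizes triose phosphate, gave 72,994, 80,757 and 67,024 in MVs, 5,482, 5,490.5 and 5,820.4 in EXOs and 25,173, 21,037 and 21,789 in hESEVs. Its 3 probe sets in the fit had log2 differences of 3.71, 3.53 and 3.77, all called (adjusted p = 1.0e-06 for the first) and all above background in every group, though probes of this kind can also bind the many processed copies of GAPDH in the genome. Quantile normalization lowered the representative to 1.22.

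Control probe sets read GAPDH at its 5′ end, its middle and its 3′ end, and show how evenly the mRNA was copied and labelled. The 3′ probe set gave 68,778, 68,765 and 70,128 in MVs and 4,406, 5,243 and 5,872 in EXOs. The 5′ probe set gave 23,795, 23,731 and 24,322 in MVs and 3,170.3, 3,075 and 3,477 in EXOs. MVs were thus higher at either end, by a log2 difference of 3.75 at the 3′ end, 3.17 in the middle and 2.89 at the 5′ end. The log2 ratio of 3′ to 5′ signal was 1.53 ± 0.0036 in MVs, 0.67 ± 0.17 in EXOs and 1.04 ± 0.12 in hESEVs (SD, n = 3), so that it moved with the groups (MVs minus EXOs 0.86, p = 0.1 by two-sided exact permutation, the lowest value 3 arrays per group can give). ACTB, measured the same way, had 4.57 ± 0.080 in MVs and 2.61 ± 0.14 in EXOs (exact permutation p = 0.1; over 4 such ratios, adjusted p = 0.1). The part of this end bias in the differences of other genes was not tested.

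**Figure D3:**
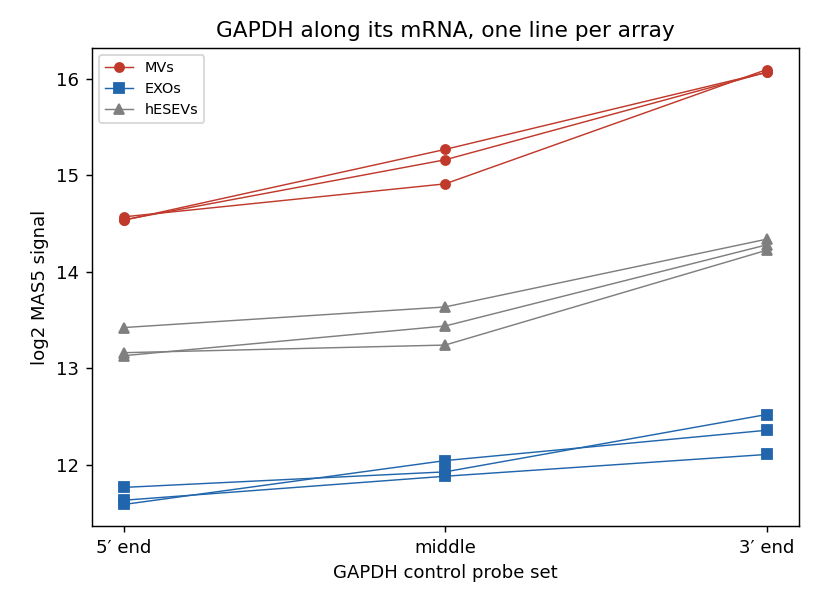
Log2 MAS5 signal (y axis) of the 3 GAPDH control probe sets, from the 5′ end to the 3′ end of the mRNA (x axis), with 1 line per array for MVs (circles), EXOs (squares) and hESEVs (triangles). The 3 groups are apart at every position, and the MVs lines climb most from the 5′ end to the 3′ end.

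PGK1 (gene ID 5230), the first ATP-yielding kinase of the pathway, gave 4,752, 4,936 and 5,133 in MVs, 632, 709 and 735 in EXOs and 1,640.4, 1,607 and 1,452 in hESEVs. The groups were far apart and tight, with a log2 difference of 2.84 (standard error 0.11, 7.15-fold, adjusted p = 2.1e-06), though EXOs lay under background. Of its other 5 probe sets, 3 were called, at 2.28, 1.45 and 1.28, and the other 2 stood at 0.47 and -0.89. PGAM1 (gene ID 5223), a phosphoglycerate mutase, had a single probe set with 10,753, 11,026 and 11,006 in MVs and 2,565, 2,163 and 2,657 in EXOs. Here both groups lay above background, and the 4.46-fold difference (log2 2.16, adjusted p = 5.9e-06) became a log2 of 0.65, under 2-fold, with quantile normalization.

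Enolase makes phosphoenolpyruvate. ENO1 (gene ID 2023), the enolase of most cells, gave 11,088, 9,038 and 10,929.7 in MVs, 1,304, 1,240.1 and 1,514 in EXOs and 4,439, 3,455 and 3,951 in hESEVs. That is a log2 difference of 2.94 (standard error 0.12, 7.65-fold, adjusted p = 2.9e-06), with EXOs just above background. Its other 3 probe sets, at -0.03, 1.55 and -0.53, were not called, and the mean of all 4 gave 0.98, under 2-fold. The last of these is the only ENO1 probe set that matches 1 transcript, so that the direction turned when the others were left out. Its means lay under background in every group (452 in MVs and 626 in EXOs), so that this direction is uncertain. ENO2 (gene ID 2026), the neuronal enolase, gave 404, 495 and 97.0 in MVs and 65.0, 74.6 and 66.6 in EXOs. These signals lay far under background and did not overlap, and the log2 difference of 1.97 did not pass (adjusted p = 0.13) unless MVs replicate 3 was left out, which gave 2.70 (adjusted p = 0.048).

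PKM (gene ID 5315), the pyruvate kinase of proliferating cells and muscle, had 2 probe sets that ran in opposite directions. The one with the higher mean gave 337, 161 and 416 in MVs and 931, 584 and 471 in EXOs, lower in every MVs array than in any EXOs array, with a log2 difference of -1.17 that did not pass (adjusted p = 0.15). The other gave 806, 829 and 530.1 in MVs and 56.2, 44.9 and 99.1 in EXOs, a log2 difference of 3.49 that was called (11.2-fold, adjusted p = 0.0063). Only the MVs mean of this second probe set, at 722, lay above its background level, and by a narrow margin. No direction is therefore given for PKM.

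Lactate dehydrogenase is a tetramer of A and B chains, of which A favours lactate formation and B is the form of heart. Both genes were higher in MVs, with signals above background in all groups. LDHB (gene ID 3945) gave 55,767, 60,581 and 47,879 in MVs, 3,663, 4,115 and 4,289 in EXOs and 12,929.5, 12,925 and 11,061 in hESEVs. The log2 difference was 3.76 (standard error 0.12, 13.6-fold, adjusted p = 1.1e-06), and 3.00 at its other probe set. LDHA (gene ID 3939) gave 9,889.8, 9,221 and 8,952 in MVs, 1,956, 1,392 and 2,199 in EXOs and 3,885, 3,318 and 3,345 in hESEVs on its only probe set. Its groups were apart as well, by a log2 of 2.36 (standard error 0.17, 5.15-fold, adjusted p = 5.7e-05). All 3 probe sets match several transcripts, and with quantile normalization the differences were 1.55 for LDHB and 1.10 for LDHA.

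The pyruvate dehydrogenase complex joins an E1 decarboxylase (PDHA1 and PDHB), an E2 acetyltransferase (DLAT) and an E3 dehydrogenase (DLD), and PDK kinases switch it off. By representative probe set, 3 of the 4 subunit genes were higher in MVs and neither kinase gene was called. PDHB (gene ID 5162) gave 2,761, 2,664 and 4,299.6 in MVs, 370.3, 277 and 328 in EXOs and 783, 967 and 722 in hESEVs. The log2 difference was 3.29 (9.80-fold, adjusted p = 4.9e-05), and 2.84 at its second probe set, also called. PDHA1 (gene ID 5160) gave 1,866, 1,408 and 2,187 in MVs and 324, 322 and 429.9 in EXOs, a log2 difference of 2.33 (adjusted p = 4.1e-04). Of its other probe sets, 1 was called at 1.38 and 1 was not, at 0.53. The latter is the one used when probe sets that match several transcripts were left out, and it lay under background in every group.

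DLD (gene ID 1738), which other dehydrogenase complexes also use, gave 1,427, 1,668 and 1,253 in MVs and 237, 356 and 431 in EXOs. Its log2 difference was 2.12 (4.34-fold, adjusted p = 0.0017), but its second probe set ran the other way at -0.97 (adjusted p = 0.069), and the mean of both gave 0.57 with no call. DLAT (gene ID 1737) gave 1,089, 569 and 844 in MVs and 498, 642 and 632 in EXOs, which overlapped, and its 3 probe sets, at 0.46, 1.13 and 0.73, were not called.

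PDK3 (gene ID 5165) came nearest to the opposite direction. Its representative probe set gave 932, 879 and 595 in MVs and 1,639, 1,253 and 1,690.0 in EXOs, lower in each MVs array than in each EXOs array. The log2 difference of -0.94 had an adjusted p of 0.030 but stayed under 2-fold. It passed 2-fold with quantile normalization (-1.09), without MVs replicate 1 (-1.07) and without EXOs replicate 2 (-1.08). A dim probe set of the same gene was higher in MVs (2.43, adjusted p = 0.036), and 3 more lay between -0.46 and 0.48, so that the direction of PDK3 depends on the probe set. PDK1 (gene ID 5163), a HIF target, had -0.66 at its representative (adjusted p = 0.11), with 469.8, 424 and 426 in MVs and 680.1, 792 and 618 in EXOs. Another of its probe sets had 1.04 (adjusted p = 0.052), and neither passed.

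In the pentose phosphate pathway, PGD acts in the oxidative branch that makes NADPH, and RPIA, TKT and TALDO1 act in the non-oxidative branch that shuffles sugar phosphates. TKT and TALDO1 were higher in MVs. TKT (gene ID 7086), transketolase, gave 12,496, 13,122 and 11,476 in MVs, 1,621, 1,276 and 1,306 in EXOs and 3,471, 3,024 and 3,309 in hESEVs. The log2 difference was 3.15 (standard error 0.12, 8.86-fold, adjusted p = 1.8e-06), with 4.58 at a second probe set (called) and 0.99 at another (not called), the only one of the 3 that matches 1 transcript. TALDO1 (gene ID 6888), transaldolase, gave 4,433, 5,163 and 4,496 in MVs, 642, 454 and 343 in EXOs and 1,278, 1,013 and 1,053 in hESEVs. Its groups did not overlap, and the log2 difference was 3.34 (standard error 0.22, 10.1-fold, adjusted p = 4.2e-05).

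PGD (gene ID 5226), like PKM, was read differently by its probe sets. The representative gave 403, 218 and 516 in MVs and 490.3, 427 and 259 in EXOs, which overlapped (log2 -0.09, adjusted p = 0.92), under background in each group. Another gave 1,106, 1,190.4 and 1,156 in MVs, 95.9, 55.5 and 51.1 in EXOs and 692, 63.3 and 609 in hESEVs. Its MVs arrays lay together above the MVs background, its EXOs arrays were at the dim end, and 1 hESEVs array stood with EXOs (log2 difference between MVs and EXOs 4.15, standard error 0.47, adjusted p = 8.8e-04). The third was at -1.10, not called. RPIA (gene ID 22934), ribose phosphate isomerase, gave 1,023, 927 and 796 in MVs and 587, 1,006 and 991 in EXOs, and its log2 difference of 0.12 did not pass (adjusted p = 0.78).

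Probe sets of 1 gene often disagreed. Of the 22 genes with several probe sets, 5 had all of them higher in MVs, 11 had some higher and some not called, and the rest had none called. Over all probe sets, 21 of the 32 genes had at least 1 higher in MVs, none had 1 higher in EXOs, and 11 had no call. Of the 34 called, the MVs mean lay above background for 32 and the EXOs mean under background for 24, so that for these 24 the fold rests on an EXOs signal that cannot be told from background. Both means lay above background for 10. Without probe sets that match several transcripts, 36 members were left and 9 of them were higher in MVs, beside 4.27% of all 37,394 such probe sets. Of the 18 genes higher in MVs, 8 then had no probe set left (GAPDH, ALDOA, LDHA, LDHB, SLC2A3, GPI, PGAM1 and TALDO1), and 6 of the other 10 were called. Among those not called, the probe sets used for ENO1, SLC2A1 and PDHA1 lay under background in every group.

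Several steps are run by more than 1 gene, and these can be compared within each array, where a scaling factor cancels. The ratio of 2 probe sets is no ratio of amounts, and only its change between groups is read. The log2 ratio of ALDOA to ALDOC was 3.36 ± 0.097 (SD, n = 3) in MVs, -0.07 ± 1.49 in EXOs and 2.25 ± 0.22 in hESEVs. That of HK1 to HK2 was 1.44 ± 0.40 in MVs, -1.57 ± 1.30 in EXOs and 0.0036 ± 0.24 in hESEVs. The difference between MVs and EXOs was thus 3.43 for the aldolases and 3.01 for the hexokinases, without overlap of arrays. The ratios of PFKL and PFKM to PFKP differed, MVs minus EXOs, by -2.19 and -1.69. LDHA stood lower against LDHB in MVs by -1.40, SLC2A1 against SLC2A3 by -1.72 and PDHA1 against PDHB by -0.96, and these ratios did not overlap either. SLC2A3, LDHB and PDHB, the genes with the wider differences above, stand in the denominator of these ratios. Of the 7 pairs without overlap, LDHA and LDHB alone had both genes above background in EXOs. In the other 6 both lay under it there, so that the EXOs ratio is one of signals that cannot be told from background, and the size of the difference is uncertain. ENO1 to ENO2 (0.97) and PDK1 to PDK3 (0.29) overlapped. Exact permutation gave p = 0.1 for the 7 pairs without overlap, the smallest that 3 arrays against 3 allow, and 0.3 and 0.4 for the other two (two-sided, 9 pairs, adjusted p = 0.129, 0.338 and 0.4). None can pass 0.05 in this design. How often other gene pairs of the array do not overlap was not counted, so that 7 of 9 only describes these pairs. With quantile normalization the difference for LDHA to LDHB was -0.45 and that for SLC2A1 to SLC2A3 -0.99. With each gene's probe sets averaged, PFKM to PFKP was at -0.04, PFKL to PFKP at -0.34 and SLC2A1 to SLC2A3 at -0.28, while HK1 to HK2 was at 4.48, PDHA1 to PDHB at -1.65 and ENO1 to ENO2 at -0.99. With unshared probe sets PDHA1 to PDHB was at -2.76 and ENO1 to ENO2 at -2.50, where the probe sets of PDHA1 and ENO1 lay under background in every group.

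**Figure D4:**
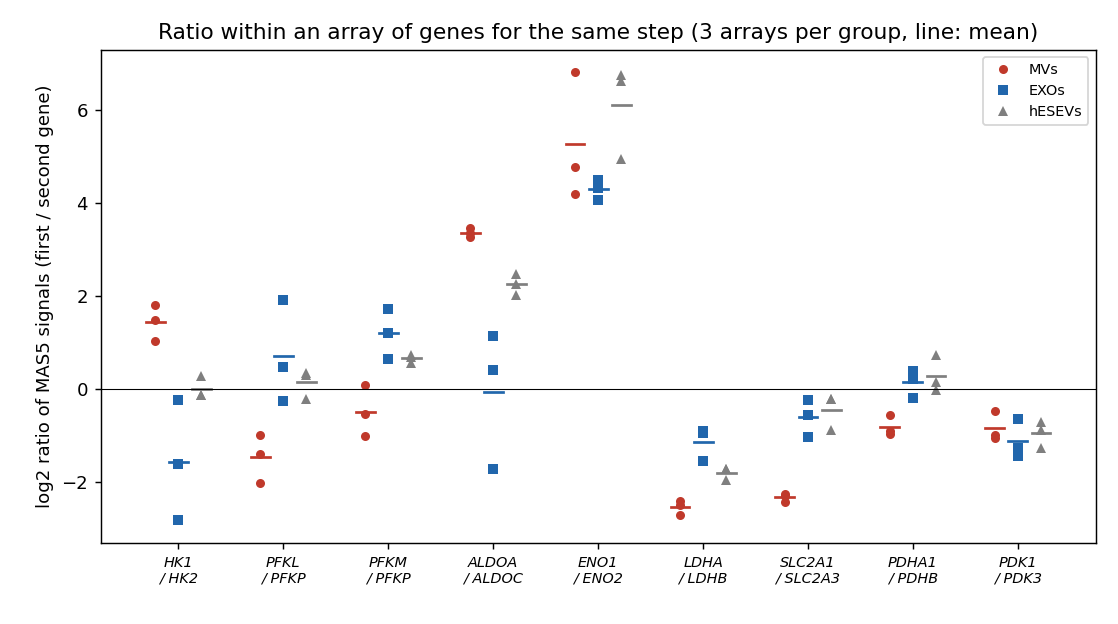
Log2 ratio of the MAS5 signals of 2 genes on the same array (y axis) for 9 pairs that serve the same step or complex (x axis), with points for the 3 arrays of each group and a line at their mean. MVs and EXOs do not overlap for 7 of the 9 pairs, in 6 of which both genes lie under background in EXOs. The share of other gene pairs without overlap was not counted. The position of a pair on the y axis reflects its probes as well as its mRNAs.

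Non-fractionated hESEVs hold both kinds of vesicles, and their comparison with each fraction shares arrays with the others. Against MVs, 15 of the 32 genes were lower in hESEVs, beside 6.57% of all genes, and 0 were higher by limma, beside 1.13% (0 at an unadjusted p under 0.05 and 2-fold, and 0 by the methods' t-test). By probe set 23 of 77 were lower in hESEVs, beside 4.25%, and 0 higher, beside 1.05%. There 1 was higher at an unadjusted p under 0.05 and 2-fold, and the methods' t-test called 1 without and 0 with adjustment. With quantile normalization 7 were lower in hESEVs in place of 23. The median log2 difference, hESEVs minus MVs, was -0.80 over the member probe sets and 0.20 over all tested.

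Against EXOs, 13 of the 32 genes were higher in hESEVs, beside 3.04% of all genes, and 0 were lower by limma, beside 0.091% (0 at an unadjusted p under 0.05 and 2-fold, and 0 by the methods' t-test). By probe set 17 of 77 were higher, beside 1.95%, and 0 lower, beside 0.103% (0 at an unadjusted p under 0.05 and 2-fold, and 0 by the methods' t-test). The median log2 difference, hESEVs minus EXOs, was 0.39 over the member probe sets and -0.03 over all tested. The methods' t-test with adjustment called 7 in place of 17. HK1 (3.11, adjusted p = 1.9e-05), ALDOA (2.44, adjusted p = 0.0060) and GAPDH (2.01, adjusted p = 1.8e-06) had such log2 differences by representative, with HK1 under background in both groups and ALDOA in EXOs. PGAM1 (0.57), TPI1 (0.51) and LDHA (0.95) had an adjusted p under 0.05 but stayed under 2-fold.

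All 34 probe sets higher in MVs than in EXOs had an hESEVs mean between those of the fractions, and nearer to EXOs for most. Placed on a linear scale from 0 at the EXOs mean to 1 at the MVs mean, hESEVs stood at a median of 0.218 (quartiles 0.165 to 0.279, range 0.0405 to 0.559). The 3,949 probe sets higher in MVs over the whole array had a median of 0.219 (quartiles 0.130 to 0.332). The 7 genes whose representative lay above background in all groups (LDHA, LDHB, ENO1, GAPDH, PGAM1, TKT and TPI1) stood at 0.139 to 0.288. For 17 of the 34 probe sets neither the EXOs nor the hESEVs mean lay above background, so that their positions, the highest and the lowest included, are uncertain. No share of RNA from each fraction was estimated from these positions.

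**Figure D5:**
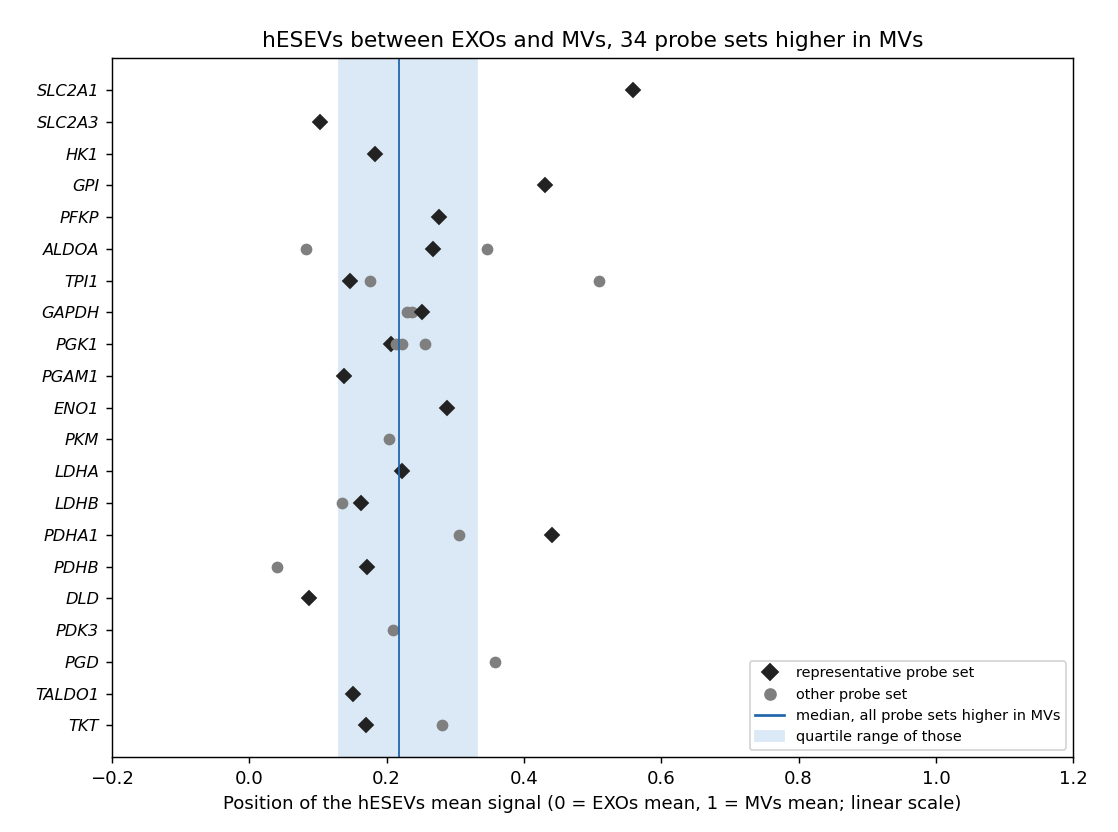
Position of the hESEVs mean signal between the EXOs mean (0) and the MVs mean (1) on a linear scale (x axis) for the 34 probe sets higher in MVs, by gene (y axis), with diamonds for representatives and circles for others. The points range from 0.0405 to 0.559, and most fall in the shaded band that holds the quartile range of all 3,949 probe sets higher in MVs.

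Other genes of the same pathways were taken as a list of 52, of which 48 had a probe set of their own. By representative, 7 of the 48 were higher in MVs than in EXOs, beside the 10.9% of all genes. By limma 0 representatives were higher in EXOs, beside 2.14% (0 at an unadjusted p under 0.05 and 2-fold, and 0 by the methods' t-test). Their median log2 difference of -0.16 lay near that of all genes, -0.23. By probe set, 1 of 13 of glucose entry, 1 of 13 of glycolysis isozymes and 1 of 23 of the pentose phosphate pathway were higher in EXOs. That compares with 1.97% of all tested. In the same roles 1, 1 and 3 probe sets were higher in MVs, beside 7.23%. The list holds isoforms of single tissues, regulators and enzymes of neighbouring steps. G6PC3 (gene ID 92579), a glucose phosphatase of most tissues, gave 3,235, 3,452 and 3,248 in MVs, 101, 95.9 and 276 in EXOs and 1,002, 859 and 1,060.1 in hESEVs. Its log2 difference of 4.57 had an adjusted p of 2.1e-04. Its EXOs mean lay under background, as did those of the other 6 genes called, so that the sizes are uncertain. RPE and PGLS, both of the pentose phosphate pathway, had 2.05 and 1.97 (adjusted p = 0.0017 and 0.0018). PCK2, the mitochondrial kinase that makes phosphoenolpyruvate, had 1.89 (adjusted p = 5.4e-04). MPC2, a subunit of the mitochondrial pyruvate carrier, had 1.13, and PGM1, which links glycogen to glycolysis, 1.09 (adjusted p = 0.0026 and 0.012). ENO3, the enolase of muscle, had 2.11 at signals under background in all groups (adjusted p = 0.027).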

How the data were processed

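RNA of H9 MVs, EXOs and hESEVs was profiled on 9 Affymetrix HG-U133 Plus 2.0 arrays. The deposited values are MAS5 signal intensities on a linear scale, which the authors scaled to a target of 500 on each array (version not given in the sources used here). The mean of each array without its lowest and highest 2% was 500. The RMA step the study names for its own comparison needs probe intensities and was left out.

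Groups come from the labels. Signals under 32 (3.39% to 5.50% of an array) were raised to 32, log2 was taken, and 62 control probe sets were left out. The MVs-EXOs contrast was fitted to those 6 arrays and both hESEVs contrasts to all 9, using limma 3.58.1 (lmFit, then eBayes with trend) under R 4.3.3. Probe sets were named by the platform annotation (41,091 with 1 gene, 1,801 with several, 11,721 with none), and 41,037 of those with 1 gene carry a gene ID found in RefSeq. The procedure was tested on simulated data. Tables and figures used Python 3.11.15, pandas 2.3.3, numpy 2.4.6, scipy 1.17.1 and matplotlib 3.10.9.

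Members and lists were chosen with earlier results of these data known. Every member gene is named by its representative probe set, and in the list of other genes up to 3 called genes per role and direction. The alternatives were other scalings (quantile, median, spike-ins), no trend, a floor of 1 or 100, low signals filtered, other arrays in the fit, a replicate block, the methods' t-test, averaged or unshared probe sets, genes fitted alone, and each replicate left out. The number of arrays limits the precision.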

Additional observations from a re-analysis of the deposited data

How the results depend on the processing

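Between MVs and EXOs, 29 to 34 member probe sets and 18 to 19 member genes were higher in MVs when each replicate was left out in turn, and 0 to 2 and 0 to 1 were higher in EXOs. The median log2 difference of the member probe sets then ran from 1.03 to 1.18. With only unshared probe sets, which leaves fewer to test, 9 probe sets and 7 genes were higher in MVs, 3 probe sets were higher in MVs than in hESEVs, 2 were higher in hESEVs than in EXOs, and the median was 0.48. Quantile normalization put 1 probe set and 1 gene higher in EXOs (PDK3) and 7 probe sets higher in MVs than in hESEVs. All 9 arrays in the fit put 1 probe set higher in EXOs, and the unadjusted methods' t-test 3. Without a trend and by the unadjusted methods' t-test, 1 was higher in hESEVs than in MVs, and the adjusted methods' t-test put 7 higher in hESEVs than in EXOs. The median was 1.28 with median centring and 1.42 with low signals filtered. The cause was not tested.

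Of the 32 genes, these changed sign. With unshared probe sets, which puts another probe set in place of the representative, ENO1 stood at -0.53 and PKM at 3.49. With probe sets averaged, PKM stood at 1.16, PGD at 0.99, PDK3 at 0.29, PDK1 at 0.15 and PFKL at 0.066. With median centring PGD stood at 0.15, PFKL at 0.10 and PFKFB3 at 0.070, and with quantile normalization PGD at 0.12 and PFKFB3 at 0.038. With a replicate left out, PFKL ran from -0.32 to 0.12, PGD from -0.36 to 0.27 and RPIA from -0.13 to 0.26. Of these, ENO1 alone is called by its representative probe set, while PKM, PGD and PDK3 each have another probe set called higher in MVs. The called genes PFKP, DLD, ENO1 and SLC2A1 lost their call with probe sets averaged (0.40, 0.57, 0.98 and 0.99). SLC2A1, PDHA1 and TKT lost theirs with unshared probe sets (0.19, 0.53 and 0.99). The unshared probe sets of ENO1, SLC2A1 and PDHA1 lay under background in every group, and that of TKT in EXOs and hESEVs. TPI1 and PGAM1 lost their call with quantile normalization (0.40 and 0.65) and PFKP with the adjusted methods' t-test (adjusted p = 0.078).

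Replicate numbers are shared between groups, but arrays with the same number did not deviate together (9 pairs, r from -0.011 to 0.013), so that the numbers were not taken to pair samples. Such correlations over all probe sets cannot show that the arrays came from separate cultures. With a replicate block, 32 member probe sets and 18 genes were higher in MVs than in EXOs.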
